A study of Mus musculus with 20 samples.

Results

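The genes described here carry the names of proteins of the cytosolic ribosome. They were chosen by name, as rows called Rpl or Rps followed by a number (with an optional letter), Rplp0 to Rplp2, or Rpsa, with a level of at least 1 TPM, a measure per transcript length scaled to a fixed total in each library, in at least 5 libraries. Of 34234 genes measured, 89 carried such a name and 82 passed the level, 49 of the large subunit and 33 of the small subunit. Of these, 81 are protein-coding and Rps3a2 is a processed pseudogene, counted by its name with the small subunit. The 7 that did not pass were Rpl10l, Rpl32l, Rpl39l, Rpl6l, Rps12l1, Rps3a3 and Rps4l, none of which exceeded 2.57 TPM in any library. The rule used level alone, with no comparison between groups. Since 5 of 20 libraries sufficed, a gene expressed in a single group could pass.

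Total RNA was sequenced in bulk from 20 kidney tumours that grew in mice from MSRT1, a cell line that the labels describe as renal medullary carcinoma, with 1 library per mouse. GYY_PD1 mice received GYY4137, which releases hydrogen sulfide slowly, together with an antibody against the checkpoint receptor PD1, Veh_PD1 mice received vehicle and that antibody, GYY_IgG mice received GYY4137 and a control IgG, and Veh_IgG mice received vehicle and control IgG. Each group had 5 mice, and all tumours came from the same 1 cell line. Mouse strain, age, dose and time of sampling were not given in the sources used here. The design asks what each agent does alone and together. It gives 5 pairs of groups and an interaction. GYY_PD1 and Veh_IgG each serve in 3 of the pairs, so the comparisons are not independent.

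A ribosome holds 1 copy of nearly every one of its proteins, so cells make these proteins in matched amounts. Their mRNAs are among the most abundant in growing cells and typically begin with a run of pyrimidines, the 5′ terminal oligopyrimidine (TOP) element, through which mTOR signalling sets their translation together. Several members have roles outside the ribosome, such as binding Mdm2 when ribosome assembly is disturbed, and a few paralogs replace their partner in muscle or germ cells.

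The promoters of 61 of the 82 genes were found in RefSeq (GRCm38.p6). The 9 below are shown because they belong to the genes whose values are described further on. Each runs 5′ to 3′ on the strand of the gene, for 40 bases before the annotated start and 20 bases after it. Capitals mark CTTTC, a pyrimidine run of the kind found at TOP starts, CCGGAAG, a core to which ETS factors such as GABP bind, and AAGATGG, the core of YY1 sites.
Rps27l: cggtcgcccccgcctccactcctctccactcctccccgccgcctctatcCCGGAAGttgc
Rps27: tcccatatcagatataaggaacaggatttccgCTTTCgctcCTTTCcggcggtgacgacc
Rplp2: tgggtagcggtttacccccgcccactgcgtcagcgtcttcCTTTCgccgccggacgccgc
Rpl27a: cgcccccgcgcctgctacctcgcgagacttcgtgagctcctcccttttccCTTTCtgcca
Rpl28: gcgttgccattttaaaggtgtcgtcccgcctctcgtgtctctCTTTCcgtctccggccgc
Rps10: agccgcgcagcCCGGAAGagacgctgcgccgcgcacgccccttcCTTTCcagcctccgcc
Rpl37: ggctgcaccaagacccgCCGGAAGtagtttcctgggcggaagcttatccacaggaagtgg
Rps12: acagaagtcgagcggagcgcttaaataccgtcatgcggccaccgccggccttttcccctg
Rpl3l: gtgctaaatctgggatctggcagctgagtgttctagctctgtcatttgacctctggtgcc

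These windows lie at chr9:66946046-66946105 on the plus strand for Rps27l, chr3:90213629-90213688 on the minus strand for Rps27, chr7:141447611-141447670 on the plus strand for Rplp2 and chr7:109519155-109519214 on the plus strand for Rpl27a. Rpl28 lies at chr7:4792925-4792984 (plus), Rps10 at chr17:27635225-27635284 (minus), Rpl37 at chr15:5116573-5116632 (plus), Rps12 at chr10:23787190-23787249 (minus) and Rpl3l at chr17:24727786-24727845 (plus). The printed pyrimidine runs sit at or close to the start in Rps27, Rplp2, Rpl27a, Rpl28 and Rps10. The windows of Rps12 and of the muscle paralog Rpl3l hold none of the 3 motifs, and AAGATGG is in none of the 9 windows. On the gene strand, within 30 bases of the start, CTTTC was found in 19 of 61 promoters of ribosomal protein genes (31.1%), against 7.78% of 27025 promoters in the table. Within 300 bases (250 before the start and 50 after), CCGGAAG on either strand was found in 24 (39.3%), against 9.12% of all promoters and 18.7% of the 9902 promoters of genes tested here. AAGATGG on either strand was found in 9 (14.8%), against 6.48% of all promoters. A promoter that held several motifs counted for each, also where their letters overlap. A match describes the letters in the window only.

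The ribosomal protein genes took a similar share of the coding RNA in 19 of the 20 tumours. To compare libraries, TPM were rescaled to the nuclear protein-coding genes, leaving out satellite-like models and olfactory and vomeronasal receptor genes, and are called coding TPM below. The coding genes of the ribosome made up 8.07%, 8.30%, 8.33% and 10.1% of coding TPM in GYY_PD1 replicates 5, 3, 4 and 2, and 1.59% in GYY_PD1 replicate 1. They made up 8.05%, 8.94%, 11.1%, 11.1% and 13.7% in the Veh_PD1 libraries. The share was 7.97% to 10.4% in GYY_IgG and 8.50% to 10.7% in Veh_IgG. The 19 other libraries thus stayed within 7.97% to 13.7%, and GYY_PD1 replicate 1 lay far below them.

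The groups overlapped in this share. It averaged 7.28% ± 3.28 in GYY_PD1, 10.6% ± 2.20 in Veh_PD1, 8.93% ± 1.23 in GYY_IgG and 9.22% ± 0.878 in Veh_IgG (SD, n = 5 each). Without replicate 1 the GYY_PD1 mean was 8.70% ± 0.948 (n = 4). In bulk tissue, fewer cells that express a gene and less of its RNA per cell cannot be told apart.

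**Figure D1:**
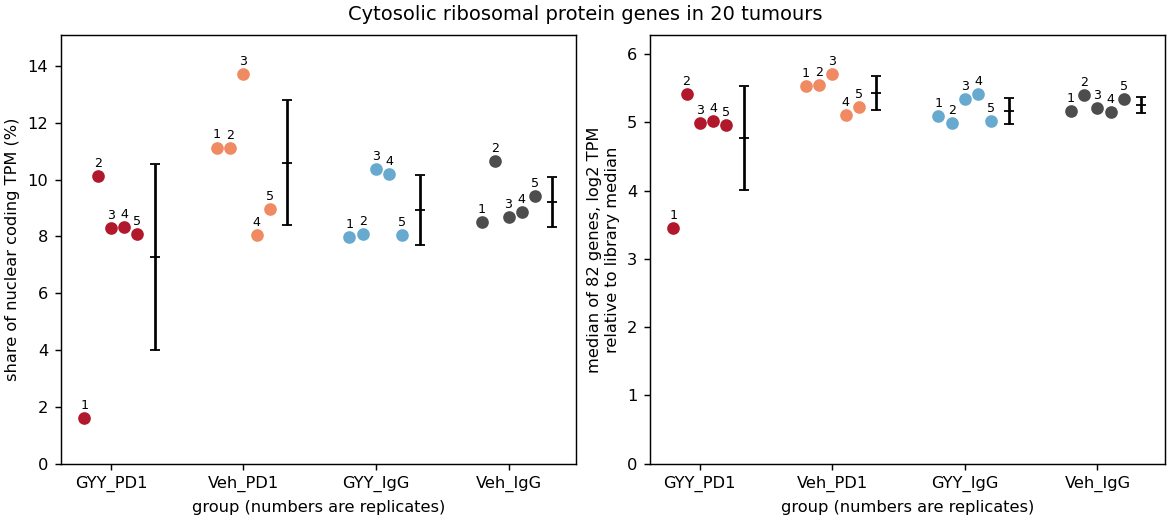
Share of nuclear coding TPM taken by the ribosomal protein genes (left, percent) and median of the 82 genes in log2 TPM relative to the library median (right), by group. Each point is 1 library with its replicate number, and bars give the mean ± SD; GYY_PD1 replicate 1, at 1.59% and 3.45, stands below the other 19 libraries in both panels.

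GYY_PD1 replicate 1 stood apart in other measures too. Its coding genes made up 5.26% of all TPM and satellite-like transcripts 53.6%, and 8198 genes reached 1 TPM. GYY_PD1 replicate 4 had fewer genes still (6659), a coding share of 2.93% and a satellite-like share of 83.4%, yet its ribosomal protein share was 8.33%. Markers of tumour epithelial and mesenchymal cells (4 of 4 listed genes past the level filter) summed to 497 to 3678 coding TPM in GYY_PD1, 1732 to 3674 in Veh_PD1, 2483 to 3382 in GYY_IgG and 2439 to 3747 in Veh_IgG, and the 497 is that of GYY_PD1 replicate 1. Germ cell markers (4 of 6 listed genes in the table, none past the level filter) summed to 4.76 to 1350 in GYY_PD1, 0.584 to 13.7 in Veh_PD1, 1.34 to 6.58 in GYY_IgG and 0.449 to 4.49 in Veh_IgG, and the 1350 is that of the same library. T cell markers (6 of 6 in the table, 4 past the filter) summed to 20.2 to 67.6 in GYY_PD1, 6.81 to 34.6 in Veh_PD1, 8.78 to 20.4 in GYY_IgG and 5.10 to 7.31 in Veh_IgG. Macrophage markers (6 of 6) summed to 482 to 2070 in GYY_PD1, 1210 to 2273 in Veh_PD1, 1380 to 2352 in GYY_IgG and 1685 to 2259 in Veh_IgG. The part of these values in the results was not tested, and differences of named genes that this library moves by over 1.5 times are given with and without it.

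Levels differed widely between members but kept their order between tumours. In TPM, which are per length, the highest mean over the 20 libraries was that of Rpl41 (1372 TPM), which encodes the smallest protein of the ribosome, and Rps24 (775 TPM), Rpl8 (608 TPM) and Rpl38 (567 TPM) were also among the highest. The lowest were Rpl3l (1.44 TPM), Rps3a2 (17.9 TPM), Rpl7l1 (20.9 TPM) and Rpl26 (26.5 TPM). Of the 82 genes, 66 lay between 100 and 600 TPM and 13 below 100 TPM. Large subunit genes took 56.4% to 59.1% of the ribosomal protein TPM in 19 libraries and 44.7% in GYY_PD1 replicate 1. The order of the 82 levels in 1 library, set against their median in the others, gave a Spearman rho of 0.737 in GYY_PD1 replicate 1, 0.920 in Veh_PD1 replicate 3 and at least 0.962 elsewhere. These rho values are descriptions over 82 genes that share a library.

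**Figure D2:**
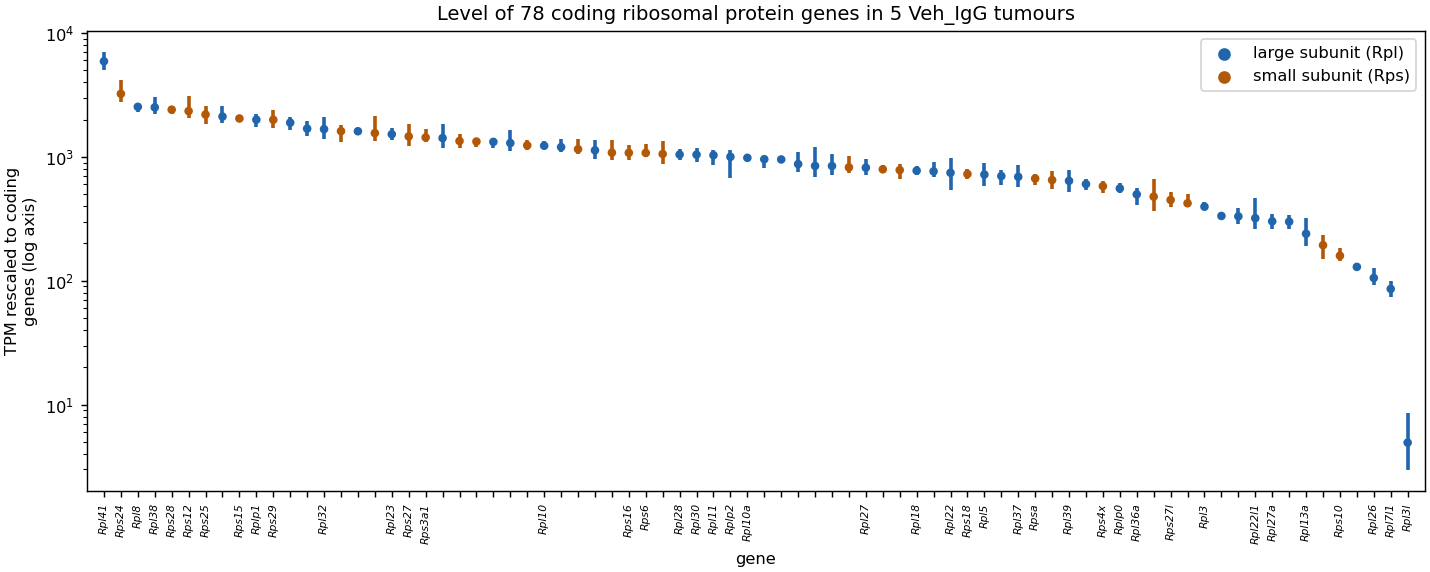
Level of 78 of the 81 coding ribosomal protein genes in the 5 Veh_IgG tumours, in coding TPM on a log axis, with names for those in the text, with large subunit genes in blue and small subunit genes in orange. Points are means and lines run between the lowest and the highest library; the levels fall steadily to Rpl7l1 and then drop to Rpl3l.

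Rpl41, the member with the highest mean level, is given as an example of the spread between libraries. It had 277, 6355, 4598, 4755 and 4593 coding TPM in GYY_PD1 libraries 1 to 5, and 6989, 7031, 8156, 4669 and 4640 in Veh_PD1. It had 4792, 5210, 6933, 6176 and 4892 in GYY_IgG, and 5035, 7007, 5742, 4990 and 6779 in Veh_IgG. The groups overlap, and the value of GYY_PD1 replicate 1 is the lowest of all 20. Relative to the median of all genes tested in a library, it was the lowest of the 20 for 75 of the 82 genes. The same count over all genes tested is not given here, so this number does not set the ribosomal protein genes apart from others.

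The members varied together. Values relative to the library median are the log2 TPM of a gene minus the median log2 TPM of the 15422 genes tested in that library. On that scale the standard deviation over the 20 libraries had a median of 0.49 over the members, against 0.52 over all genes tested. With GYY_PD1 replicate 1 left out it was 0.27, against 0.34. Pearson's r of each gene with the median of the other members was 0.93 at the median over 20 libraries and 0.82 without GYY_PD1 replicate 1, a description in which the genes share libraries and scaling. The genes most like the median member were Rpl41, Rpl32 and Rpl10a, each at r of 0.98. The least alike were Rps28 (-0.68), Rpl3l (-0.66) and Rpl18 (-0.20). Over the other 19 libraries these 3 had r of 0.52, 0.23 and 0.76.

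**Figure D3:**
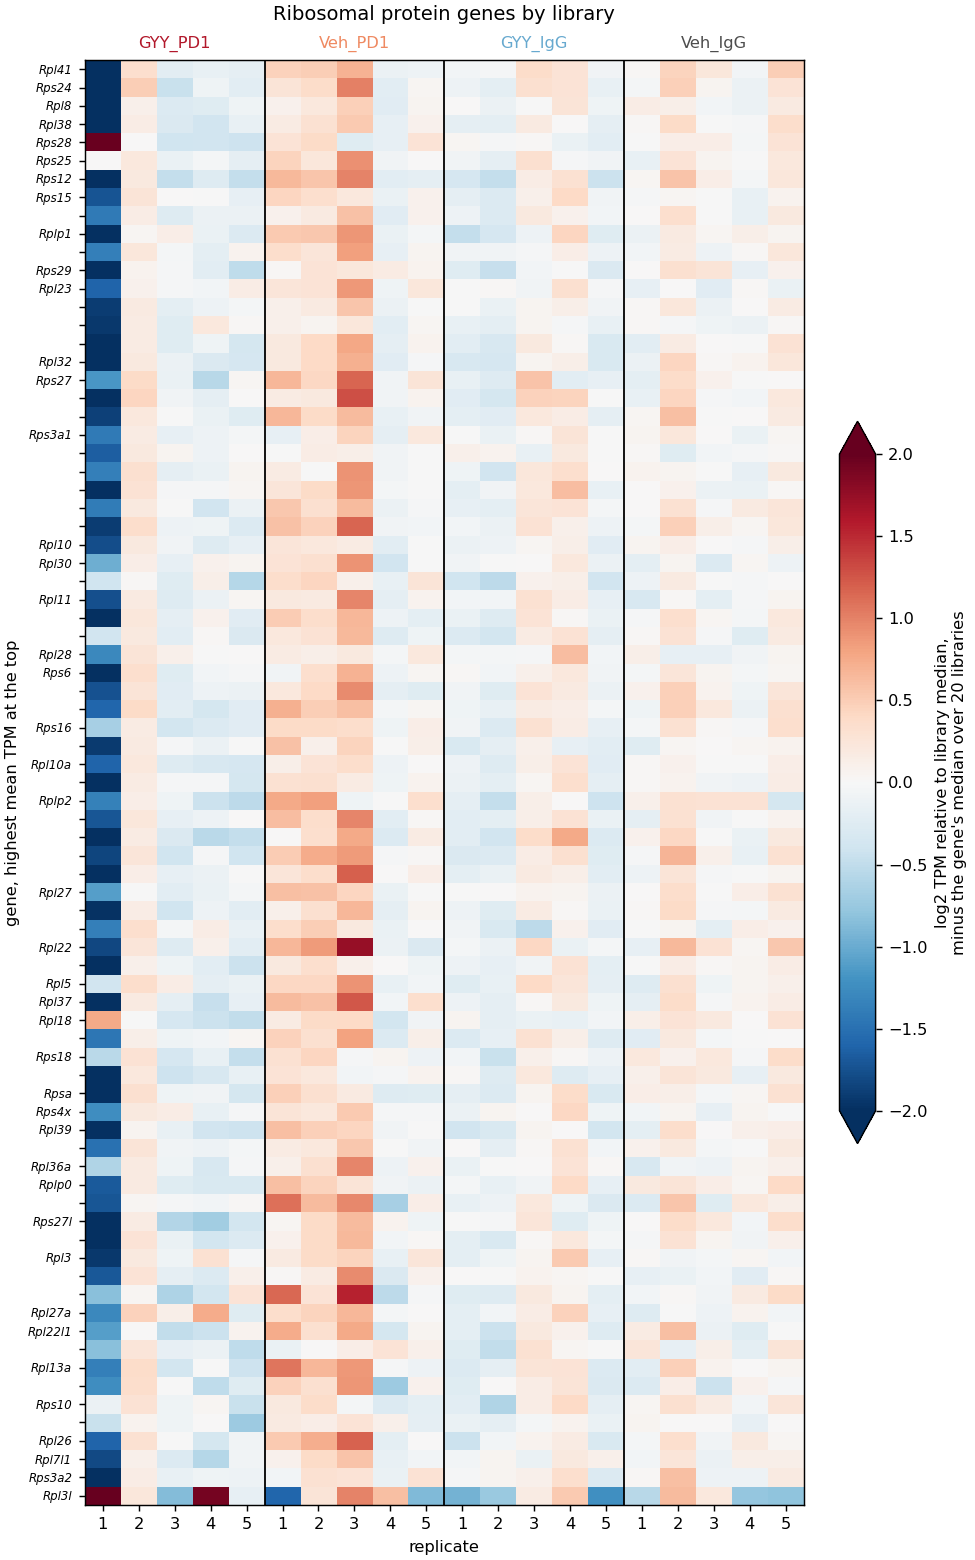
79 of the ribosomal protein genes (rows, highest mean TPM at the top, with names for those in the text) in the 20 libraries (columns, by group), as log2 TPM relative to the library median, minus the gene's own median over the 20 libraries; colours saturate at 2 in either direction. GYY_PD1 replicate 1 is low for all but a few rows, such as Rps28 and Rpl18, and Veh_PD1 replicate 3 is high for most.

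In GYY_PD1 replicate 1 the members were unevenly low. Of the 82 genes, 78 lay below their median in the other 19 libraries, by 1.74 on the log2 scale at the median of the members. The share of all genes tested that lay below in this way is not given here. Rps29 and Rpl37 were among those that lay furthest below. Rps29 stood at 2.09 against a median of 6.18 elsewhere and Rpl37 at 0.745 against 4.68 (log2 TPM relative to the library median). Rps27 (4.60 against 5.78) and Rpl36a (3.74 against 4.35) lay less far below. Rps28, a small protein near the mRNA exit, stood at 8.44 against 6.45, Rpl18 at 5.50 against 4.73 and Rps25, needed in cells for some internal ribosome entry sites, at 6.35 against 6.33. Rps3a2 was at 0 TPM in that library.

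No ribosomal protein gene passed the threshold with either agent alone. In GYY_IgG against Veh_IgG, 0 of 82 genes passed an adjusted p of 0.05 in limma (0% of all genes tested). Their log2 differences had a median of -0.12, against -0.01 over all genes tested, and 68 were negative, none at an unadjusted p under 0.05 in the lower direction (0.622% of all genes). The lowest were Rps12 (-0.34 ± 0.35 SE), Rplp2 (-0.32 ± 0.25 SE) and Rps29 (-0.31 ± 0.54 SE). The highest was Rpl23 (0.15 ± 0.27 SE). These differences are smaller than or close to their standard errors, which come from 1 model of all 4 groups. The standard errors thus also hold the spread of GYY_PD1, with its replicate 1, and not that of the 2 groups compared alone. For Rps29 the SD relative to the library median was 0.18 in GYY_IgG and 0.20 in Veh_IgG, against 1.76 in GYY_PD1. For Rps12 it was 0.36 and 0.23, against 0.87 in GYY_PD1.

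In Veh_PD1 against Veh_IgG, 0 of 82 genes passed (0% of all genes tested). The median difference was 0.16, against -0.04 over all genes, and 77 genes were positive, none at an unadjusted p under 0.05 in the higher direction (0.772% of all genes). Rpl37 (0.48 ± 0.53 SE) and Rps27 (0.43 ± 0.27 SE) were among the highest. Here too the standard errors hold the spread of GYY_PD1. The SD of Rpl37 was 0.47 in Veh_PD1 and 0.21 in Veh_IgG, against 1.70 in GYY_PD1. Rps27 stood at 6.44, 6.19, 6.93, 5.70 and 6.02 in Veh_PD1, against 5.58, 6.14, 5.85, 5.76 and 5.78 in Veh_IgG (log2 TPM relative to the library median). Veh_PD1 replicates 1 to 3 held the high values, while replicates 4 and 5 lay within the Veh_IgG range.

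The ribosomal protein genes had their lowest mean level in GYY_PD1, without a gene past the threshold. In GYY_PD1 against Veh_IgG, 0 of 82 passed (0% of all genes tested), the median difference was -0.45, against -0.17 over all genes tested, and 79 were negative. At an unadjusted p under 0.05, 16 genes were lower (11.4% of all genes tested). Without GYY_PD1 replicate 1 the median was -0.16 and 6 genes were lower (8.88% of all genes). Without replicates 1 and 4 it was -0.13 and 3 genes were lower (4.92% of all genes). The lowest differences were those of Rps3a2 (-2.07 ± 1.27 SE), Rps29 (-1.05 ± 0.54 SE) and Rpl37 (-0.98 ± 0.53 SE). With GYY_PD1 replicate 1 left out they were -0.17, -0.27 and -0.23.

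Against Veh_PD1, GYY_PD1 gave 0 of 82 genes past the threshold (0.00648% of all genes tested). The median difference was -0.63, against -0.12 over all genes, and 80 were negative. At an unadjusted p under 0.05, 44 genes were lower (8.42% of all genes). Without GYY_PD1 replicate 1 the median was -0.30 and 27 genes were lower (7.52% of all genes), and without replicates 1 and 4 it was -0.26 and 13 were lower (5.11% of all genes). The counts moved by over 1.5 times with that 1 library, while their share stayed above that of all genes in both settings. The members vary together, so the genes counted are not separate observations. Relative to the library median, the median member stood at 5.53, 5.55 and 5.71 in Veh_PD1 replicates 1 to 3. It stood at 5.11 and 5.22 in replicates 4 and 5.

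Against GYY_IgG, GYY_PD1 gave 0 of 82 genes past the threshold (0% of all genes tested). The median difference was -0.34, against -0.17 over all genes, and 3 genes were lower at an unadjusted p under 0.05 (6.92% of all genes). Without GYY_PD1 replicate 1 the median was -0.03 and no gene was lower at that level. The interaction, which asks whether GYY4137 acts differently under the PD1 antibody than under IgG, gave 0 of 82 genes past the threshold (0% of all genes), a median of -0.54 against -0.11 over all genes, and 1 gene lower at an unadjusted p under 0.05 (1.5% of all genes). Its median was -0.21 without GYY_PD1 replicate 1.

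**Figure D4:**
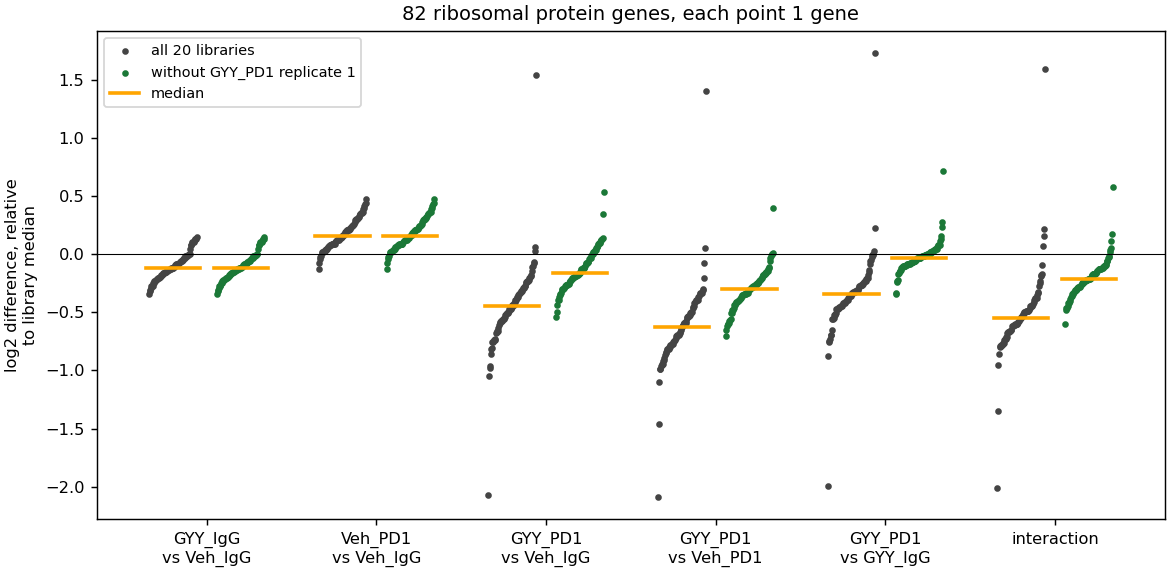
Log2 differences of the 82 ribosomal protein genes relative to the library median (y axis) in 6 comparisons (x axis), with all 20 libraries (grey) and without GYY_PD1 replicate 1 (green). Each point is 1 gene and orange lines are medians; in GYY_PD1 against Veh_IgG the median is -0.45 with all libraries and -0.16 without that replicate.

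The number of genes called in GYY_PD1 against Veh_IgG depended on the scale. On the deposited log2 TPM with no centring, 81 of 82 genes were called lower (69.9% of all genes tested), with a median of -2.36, against -2.09 over all genes. With 5 TPM added before the log and centring on the library median, 66 were called lower (23.7% of all genes). On the coding TPM scale 0 were called and the median was -0.63. The median of all genes tested thus moved almost as far as the ribosomal protein genes on the deposited scale, and differences here are relative to the library median unless another scale is named.

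The subunits are given side by side. In GYY_PD1 against Veh_IgG the 49 large subunit genes had a median of -0.44, and 10 were lower at an unadjusted p under 0.05. The 33 small subunit genes had a median of -0.49, and 6 were lower. Of all genes tested, 11.4% were lower at that level. Without GYY_PD1 replicate 1 the medians were -0.13 and -0.17, with 3 genes lower in each subunit (8.88% of all genes). Against Veh_PD1 the median was -0.63 for the large subunit, with 28 genes lower at that level, and -0.67 for the small subunit, with 16 (8.42% of all genes). With GYY_PD1 replicate 1 left out these medians were -0.29, with 16 genes lower, and -0.30, with 11 (7.52% of all genes).

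Among large subunit genes, Rpl27, whose human ortholog is mutated in some patients with Diamond-Blackfan anaemia, had 148, 726, 668, 700 and 730 coding TPM in GYY_PD1, 1117, 1095, 979, 670 and 722 in Veh_PD1, 723, 770, 826, 771 and 687 in GYY_IgG, and 724, 958, 715, 828 and 864 in Veh_IgG. In coding TPM GYY_PD1 replicates 2 and 5 lie above Veh_IgG replicates 1 and 3. Relative to the library median its GYY_PD1 values all lay below those of Veh_IgG, by as little as 4.826 against 4.827. It was the only such member (1 of 82, against 1.63% of all genes tested), a share no higher than the background, and no member was so against Veh_PD1 (0.687% of all genes tested). Its difference was -0.46 ± 0.19 SE against Veh_IgG (limma, adjusted p = 0.274) and -0.59 ± 0.19 SE against Veh_PD1 (limma, adjusted p = 0.332). With GYY_PD1 replicate 1 left out they were -0.26 and -0.39. Rpl13a, which in human monocytic cells leaves the ribosome to silence inflammatory mRNAs, had 38.0, 289, 182, 233 and 173 coding TPM in GYY_PD1, against 474, 352, 407, 222 and 207 in Veh_PD1. Those groups overlap, and the difference was -0.85 ± 0.28 SE (limma, adjusted p = 0.334).

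Rpl5 and Rpl11 bind Mdm2 together with a ribosomal RNA and so link ribosome assembly to p53. Rpl5 had 234, 895, 822, 648 and 655 coding TPM in GYY_PD1, 936, 928, 1308, 639 and 667 in Veh_PD1, 588, 662, 991, 848 and 630 in GYY_IgG, and 582, 894, 646, 755 and 722 in Veh_IgG. Its difference in GYY_PD1 against Veh_IgG was -0.07 ± 0.20 SE, and 0.019 without GYY_PD1 replicate 1. Rpl11 averaged 915 ± 444 coding TPM in GYY_PD1, 1358 ± 467 in Veh_PD1, 1170 ± 182 in GYY_IgG and 1031 ± 121 in Veh_IgG (SD, n = 5 each). Its difference was -0.29 ± 0.29 SE with all libraries and 0.05 without GYY_PD1 replicate 1. Values of both genes overlapped between all groups.

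Among small subunit genes, Rps16 and Rps18 had the smallest unadjusted p-values in GYY_PD1 against Veh_IgG after Rps27l. Rps18 had 194, 789, 542, 610 and 480 coding TPM in GYY_PD1, against 737, 706, 734, 661 and 797 in Veh_IgG. GYY_PD1 replicate 2 lies within the Veh_IgG range, the other 4 below it. The difference was -0.41 ± 0.16 SE (limma, adjusted p = 0.257), and for Rps16 it was -0.39 ± 0.16 SE (limma, adjusted p = 0.262). Rps6, the substrate of S6 kinase, averaged 891 ± 460 coding TPM in GYY_PD1 and 1077 ± 108 in Veh_IgG (SD, n = 5 each), with a difference of -0.46 ± 0.32 SE that was -0.04 without GYY_PD1 replicate 1. Rpsa, which is also known as the laminin receptor, gave -0.55 ± 0.31 SE with all libraries and -0.16 without that replicate.

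The stalk recruits elongation factors to the large subunit and is built from Rplp0 with Rplp1 and Rplp2. Rplp0 had 65.4, 545, 434, 411 and 403 coding TPM in GYY_PD1, 740, 654, 580, 462 and 443 in Veh_PD1, 466, 459, 494, 651 and 439 in GYY_IgG, and 547, 590, 519, 516 and 610 in Veh_IgG. Apart from replicate 2, the GYY_PD1 libraries lie below both vehicle groups. The difference was -0.68 ± 0.25 SE against Veh_IgG (limma, adjusted p = 0.254) and -0.70 ± 0.25 SE against Veh_PD1 (limma, adjusted p = 0.335). They were -0.37 and -0.39 without GYY_PD1 replicate 1.

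Rplp2 had the smallest p of all members in GYY_PD1 against Veh_PD1. It had 154, 988, 899, 707 and 649 coding TPM in GYY_PD1, 1538, 1592, 854, 909 and 1129 in Veh_PD1, and 957, 1144, 1085, 1145 and 675 in Veh_IgG. The groups overlap, through Veh_PD1 replicates 3 and 4. The difference against Veh_PD1 was -0.82 ± 0.25 SE (limma, adjusted p = 0.332), and -0.59 without GYY_PD1 replicate 1. Rplp1 gave -0.82 ± 0.34 SE against Veh_PD1, and -0.41 without that replicate.

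Paralog pairs offered a comparison within the family. Rps27l, a target of p53 that can take the place of Rps27, had the smallest p of the members in GYY_PD1 against Veh_IgG. It had 32.0, 444, 278, 258 and 318 coding TPM in GYY_PD1, and 409, 514, 616, 421 and 369 in Veh_PD1. It had 391, 408, 500, 342 and 379 in GYY_IgG, and 395, 524, 449, 397 and 481 in Veh_IgG. GYY_PD1 replicates 1, 3, 4 and 5 lie below every library of the other groups, and replicate 2 lies among them. The difference was -0.96 ± 0.32 SE against Veh_IgG (limma, adjusted p = 0.237), -0.99 ± 0.32 SE against Veh_PD1 (limma, adjusted p = 0.332) and -0.75 ± 0.32 SE against GYY_IgG (limma, adjusted p = 0.461). Without GYY_PD1 replicate 1 they were -0.54 (limma, adjusted p = 0.216), -0.58 (limma, adjusted p = 0.249) and -0.34 (limma, adjusted p = 0.752).

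Its partner Rps27 gave -0.34 ± 0.27 SE against Veh_IgG, and -0.12 without GYY_PD1 replicate 1. Rps27 had 272, 1828, 1350, 996 and 1478 coding TPM in GYY_PD1, which overlaps the Veh_IgG range of 1216 to 1856. The difference between the paralogs was not tested.

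Rpl22l1, a paralog that Rpl22 represses in mice, had 60.3, 297, 222, 232 and 321 coding TPM in GYY_PD1, 496, 370, 499, 233 and 303 in Veh_PD1, and 329, 463, 268, 260 and 280 in Veh_IgG. Rpl22 itself averaged 510 ± 256 coding TPM in GYY_PD1, 1030 ± 613 in Veh_PD1, 643 ± 128 in GYY_IgG and 744 ± 169 in Veh_IgG (SD, n = 5 each). Veh_PD1 replicate 3 carried its highest value, 2025. In GYY_PD1 against Veh_PD1 the log2 difference was -0.69 ± 0.24 SE for Rpl22l1 (limma, adjusted p = 0.335) and -0.96 ± 0.37 SE for Rpl22 (limma, adjusted p = 0.345), neither past the threshold. With GYY_PD1 replicate 1 left out they were -0.51 and -0.60.

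Rpl3l, which replaces Rpl3 in heart and skeletal muscle, was near the level filter. It had 94.4, 6.34, 3.16, 21.5 and 4.99 coding TPM in GYY_PD1, 1.83, 6.49, 10.8, 8.32 and 2.92 in Veh_PD1, 2.81, 3.42, 6.54, 8.01 and 2.37 in GYY_IgG, and 3.66, 8.60, 6.15, 3.29 and 2.97 in Veh_IgG. The 2 high values belong to GYY_PD1 replicates 1 and 4, the libraries with the lowest coding shares, at 5.26% and 2.93% of all TPM. Its difference of 1.55 ± 0.87 SE against Veh_IgG was 0.54 without replicate 1 and -0.01 without both. Skeletal muscle markers (6 of 6 listed genes in the table, 3 past the level filter) summed to 21.4 to 113 coding TPM in GYY_PD1, 8.69 to 42.8 in Veh_PD1, 4.89 to 41.3 in GYY_IgG and 8.98 to 624 in Veh_IgG. The library at 624, Veh_IgG replicate 1, had 3.66 coding TPM of Rpl3l. Rpl3 averaged 369 ± 187 coding TPM in GYY_PD1 and 396 ± 22.7 in Veh_IgG (SD, n = 5 each). Without GYY_PD1 replicate 1 its GYY_PD1 mean was 449 ± 57.2 (n = 4), above that of Veh_IgG.

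The germ cell paralogs Rpl10l and Rpl39l stayed below the filter, with means over 20 libraries of 0.0550 and 0.174 TPM. On the same scale Rpl10 had 287 TPM and Rpl39 had 146 TPM. Rpl10 averaged 963 ± 469 coding TPM in GYY_PD1 and 1230 ± 60.6 in Veh_IgG (SD, n = 5 each). Rpl39 averaged 441 ± 228 in GYY_PD1 and 640 ± 99.3 in Veh_IgG. Without GYY_PD1 replicate 1 the GYY_PD1 means were 1166 ± 134 for Rpl10 and 538 ± 73.8 for Rpl39 (n = 4).

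A further question is whether the members changed relative to each other. For this the median of the 82 genes was subtracted in each library, in place of the library median. The members are thus centred on this scale and the other genes are not. Shares of all genes tested on this scale, here and below, are therefore not a like baseline for the members. In GYY_PD1 against Veh_IgG no member passed an adjusted p of 0.05 on this scale. At an unadjusted p under 0.05, 6 members were higher (11.1% of all genes tested) and 2 were lower (2.28% of all genes tested). Those lower were Rps27l and Rps12, and those higher were Rpl27a, Rpl30, Rpl28, Rps4x, Rpl23 and Rpl5. The difference of Rpl5 was 0.42 with all libraries and 0.18 without GYY_PD1 replicate 1. It was 0.30 for Rpl23 with and without that replicate, and 0.35 with it and 0.29 without it for Rpl28.

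Rps27l stood at -1.94, -1.30, -1.63, -1.76 and -1.38 in GYY_PD1, against -1.21, -1.09, -1.06, -1.26 and -1.05 in Veh_IgG (log2 relative to the median member). Rps12, which in flies is needed for cell competition, stood at 0.76, 1.09, 0.85, 1.03 and 0.87 in GYY_PD1, against 1.19, 1.47, 1.23, 1.12 and 1.20 in Veh_IgG. The groups do not overlap for either gene (2 of 82 below, against 0.383% of all genes tested). Of all genes tested, 2.52% lay above in the same way, so the 0.383% reflects the centring and no excess can be read from it. Values of GYY_IgG (0.84 to 1.21 for Rps12) and of Veh_PD1 (0.91 to 1.61) overlap both. The differences were -0.47 ± 0.14 SE for Rps27l (limma, adjusted p = 0.226) and -0.32 ± 0.14 SE for Rps12 (limma, adjusted p = 0.358). They were -0.39 and -0.28 without GYY_PD1 replicate 1, and without replicates 1 and 4 both were -0.30.

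Rps15, which lies near the decoding site, was the only member whose GYY_PD1 values all lay above those of Veh_IgG (1 of 82, against 2.52% of all genes tested). It stood at 1.16, 1.17, 1.35, 1.30 and 1.20 in GYY_PD1, against 1.15, 0.96, 1.10, 1.03 and 1.06 in Veh_IgG. The difference was 0.18 ± 0.11 SE (limma, adjusted p = 0.411).

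Rpl27a, a large subunit protein, stood at -1.12, -1.33, -1.24, -0.65 and -1.58 in GYY_PD1, -1.55, -1.48, -1.41, -1.52 and -1.58 in Veh_PD1, -1.68, -1.43, -1.56, -1.32 and -1.56 in GYY_IgG, and -1.80, -1.80, -1.69, -1.46 and -1.77 in Veh_IgG. GYY_PD1 replicate 4 is the highest and replicate 5 lies within the Veh_IgG range. The difference was 0.52 ± 0.14 SE (limma, adjusted p = 0.170), the smallest p of the members on this scale, and 0.32 without replicates 1 and 4. In coding TPM, Rpl27a had 56.2, 436, 363, 557 and 277 in GYY_PD1 and 263, 322, 290, 343 and 291 in Veh_IgG.

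In Rpl37, Rps28 and Rpl18, GYY_PD1 replicate 1 stood far from the other 4 GYY_PD1 libraries on this scale. Rpl37 was at -2.70 in GYY_PD1 replicate 1 and between -0.83 and -0.46 in the other GYY_PD1 libraries, against -0.69 to -0.37 in Veh_IgG. Rps28 was at 4.99 in GYY_PD1 replicate 1 and between 1.04 and 1.08 in the other 4, against 1.18 to 1.38 in Veh_IgG. Rpl18 was at 2.05 in GYY_PD1 replicate 1 and between -0.72 and -0.59 in the other 4, against -0.41 to -0.28 in Veh_IgG. For Rps28 and Rpl18 the other 4 GYY_PD1 libraries thus lay below Veh_IgG while that library lay above. The share of members or of all genes that do so with 1 library set aside is not given here, so no excess can be read from it. For Rpl18 all Veh_PD1 libraries also lay below Veh_IgG, at -0.74 to -0.44, so a low value was not particular to GYY_PD1. Values of GYY_IgG overlapped those of Veh_IgG for both genes, as did those of Veh_PD1 for Rps28.

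**Figure D5:**
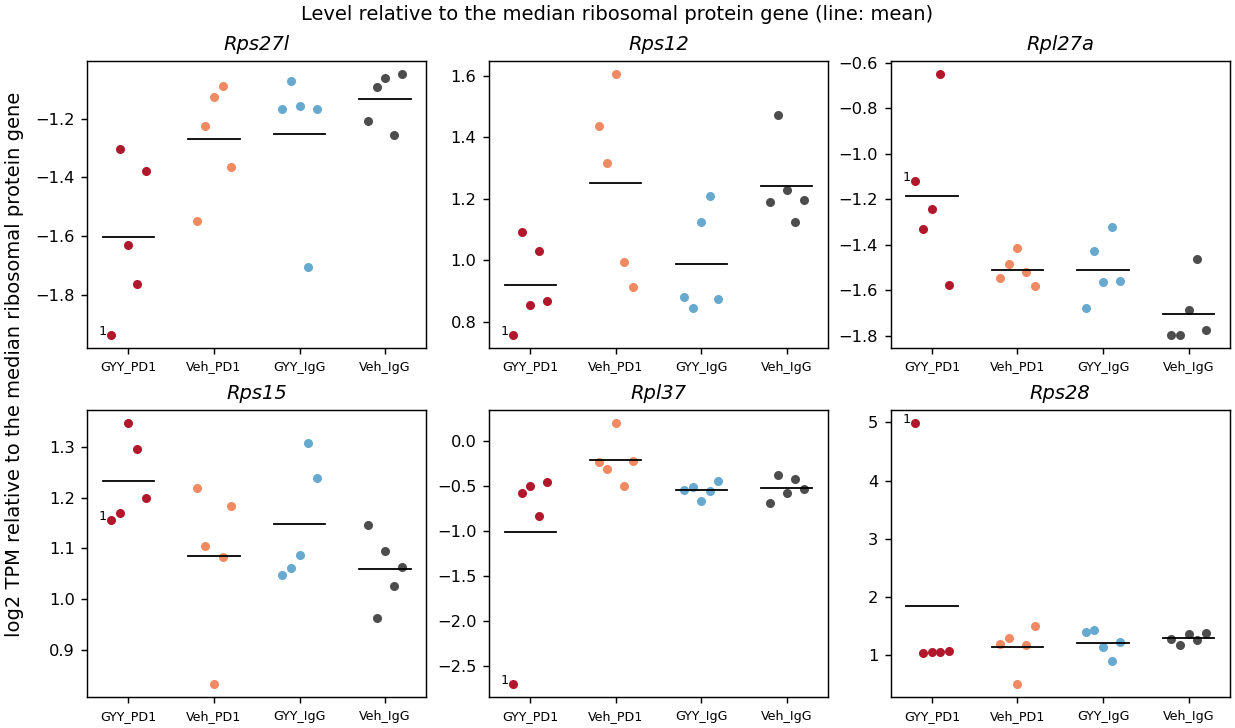
Log2 TPM relative to the median ribosomal protein gene (y axes, with a range of their own in each panel) for Rps27l, Rps12, Rpl27a, Rps15, Rpl37 and Rps28 in the 4 groups. Each point is 1 library, lines are group means and GYY_PD1 replicate 1 is numbered; in Rpl37 and Rps28 it lies far from the other libraries, at -2.70 and 4.99.

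Ribosomal protein genes have many processed copies in the genome, and the level of a member depends on how reads were divided among them. Cut into stretches of 31 bases, the transcripts of a member shared 45.9% with transcripts of other genes at the median, and 36 of 82 shared more than 50% of theirs. Rpl26, which binds p53 mRNA in human cells, had 26.5 ± 16.5 TPM, while Gm15772, a processed pseudogene at chr5:3236431-3236868 (mm10), had 349 ± 199 TPM (SD, n = 20). Gm15772 shares 45.9% of the stretches of Rpl26, and its value was 9.08 to 17.0 times that of Rpl26 in the 20 libraries. Rps18 had 161 ± 92.6 TPM beside 79.3 ± 43.6 TPM for Gm10260, an intronless gene model at chr13:97760072-97760632 that shares 65.4%. The value of Gm10260 was 0.0716 to 0.752 times that of Rps18, lowest in GYY_PD1 replicate 1, where they had 0.732 and 10.2 TPM. Rplp0 had 125 ± 70.8 TPM beside 47.8 ± 23.8 TPM for Gm8730, and Rps3a2 shared 84.8% of its stretches with Rps3a1. The levels of these members are therefore uncertain. Rps27l shared 22.9% and Rpl3l none.

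Ribosome genes outside the naming rule gave values of the same kind. Fau encodes a ribosomal protein fused to a ubiquitin-like protein, Rack1 is a scaffold on the small subunit and Rpl36al is a paralog of Rpl36a. In GYY_PD1 against Veh_IgG the log2 difference was -0.59 ± 0.37 SE for Fau, -0.45 ± 0.25 SE for Rack1 and -0.87 ± 0.29 SE for Rpl36al. With GYY_PD1 replicate 1 left out they were -0.08 for Fau, -0.13 for Rack1 and -0.65 for Rpl36al. In GYY_PD1 replicate 1 Fau was at 110 coding TPM, against 1429 to 1964 in Veh_IgG. None of the 3 genes passed the threshold.

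Lists of related genes are given beside the members. Of 21 other genes with TOP mRNAs, all tested, 0 passed the threshold in any of the 6 comparisons, and their medians were -0.39 in GYY_PD1 against Veh_IgG, -0.47 against Veh_PD1 and -0.36 against GYY_IgG. The 77 mitochondrial ribosomal protein genes had medians of -0.39, -0.39 and -0.31, and the 34 constitutive proteasome genes had -0.46, -0.50 and -0.38 in the same comparisons, with 0 genes past the threshold. The 21 ribosome assembly genes had medians of 0.06, 0.11 and -0.16, also with 0 past it. At an unadjusted p under 0.05, 4 other TOP genes, 28 mitochondrial ribosomal protein genes and 11 proteasome genes were lower in GYY_PD1 than in Veh_IgG, against 16 of the 82 ribosomal protein genes and 11.4% of all genes tested. These counts were 0, 31 and 9 without GYY_PD1 replicate 1, against 6 of the 82 and 8.88% of all genes. The medians in GYY_PD1 against Veh_IgG were then -0.08 for the other TOP genes, -0.31 for the mitochondrial ribosomal protein genes, -0.18 for the proteasome genes and -0.02 for the assembly genes. In GYY_PD1 replicate 1 the median of the mitochondrial ribosomal protein genes was 0.21, against 0.82 to 1.56 in the other libraries, that of the proteasome genes was 1.62, against 2.85 to 3.27, and that of the other TOP genes was 3.01, against 4.26 to 4.87. That of the ribosome assembly genes was 1.39, within the range of the other libraries, of which GYY_IgG replicate 4 lay above it and the lowest stood at 0.72.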

How the data were processed

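The authors deposited log2 TPM, without an added constant, in 1 table of 34234 genes and 20 libraries, in which 0 TPM is written as -8.879. The submitters' processing notes name Salmon 0.14.1, fastp, cutadapt, HTSeq 0.11.0 and the mm10 build, and which tool made the TPM is not given in the sources used here. TPM keep no depth, so no counting interval is given. Gene types came from GENCODE M21.

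The 15422 genes that reached 1 TPM in 5 or more libraries entered a limma model (version 3.58.1, R 4.3.3) of the 4 groups, with trended variance, on log2 TPM minus the library median. p-values were adjusted by Benjamini-Hochberg over all genes tested, with a threshold of 0.05, and the fit was tested on simulated data. They measure the spread between mice, pooled over the 4 groups. A second model subtracted the median of the 82 members.

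The members, gene lists and rule for named genes were chosen with earlier results of these data known. Named are the members with the largest differences, the highest, lowest and most variable levels, paralog pairs, stalk genes and members with roles outside the ribosome. Rps2, Rps15, Rps16, Rps25, Rpl27 and Rpl30 were chosen after their values were seen, as were the genes listed by p.

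Alternatives were other scalings, pseudocounts, filters and fits, and each library left out. Values of some single genes are not reported here. The replicate numbers were not treated as pairs in the main model.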

Additional observations from a re-analysis of the deposited data

Results flagged for a closer look

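Single libraries that lay far from the other 4 of their group were looked for with Dixon's test at the 95% level, which marks about 1 in 20 groups by chance. GYY_PD1 replicate 1 was set apart by the share of coding TPM in ribosomal protein genes (1.59%) and by the median member relative to the library median (3.45 log2). It was set apart as the lowest of its group for 51 of the 82 members and as the highest for 1, Rps28 (8.44). The share of all genes tested for which this library was set apart is not given here. Among the named large subunit genes its low log2 values relative to the library median were 3.66 for Rpl11, 2.75 for Rpl22, 4.39 for Rpl23, 3.73 for Rpl27, 4.10 for Rpl28, 2.05 for Rpl3, 4.45 for Rpl30, 3.01 for Rpl32, 0.75 for Rpl37, 4.63 for Rpl41, 2.54 for Rplp0 and 4.13 for Rplp1. Among the named small subunit genes they were 4.61 for Rps15, 3.55 for Rps2, 2.09 for Rps29, -8.12 for Rps3a2 (0 TPM), 3.27 for Rps4x, 3.26 for Rps6 and 2.60 for Rpsa.

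In GYY_IgG, replicate 4 was set apart as the highest for Rpl23 (6.31), Rpl28 (5.997) and Rplp0 (4.63), and replicate 3 for Rpl22 (4.98), Rps25 (6.66) and Rps27 (6.34). Over all 82 members, 4 were set apart as the highest in GYY_IgG replicate 4, 3 in GYY_IgG replicate 3 and 3 in Veh_PD1 replicate 3. Veh_IgG replicates 1, 2 and 4 were each set apart as the lowest for 1 member. Counts this small out of 82 members are near what marking 1 in 20 groups gives by chance.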

How the results depend on the processing

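The number of members past the threshold was 0 in each of the 6 comparisons under every setting run, with 2 exceptions in GYY_PD1 against Veh_IgG, 81 on the deposited scale and 66 with a pseudocount of 5 TPM. With each library left out in turn it was 0 as well. With the replicate number as a block it was also 0 in each comparison. Same-numbered libraries had residual correlations of -0.085 to 0.109, and 7 of 20 libraries correlated best with their own number. The number to be had by chance is not given here, so these values cannot settle whether the numbers pair the libraries.

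The median difference of the members on the deposited scale was -0.70 in Veh_PD1 against Veh_IgG, -2.36 in GYY_PD1 against Veh_IgG, -1.68 against Veh_PD1, -1.86 against GYY_IgG and -1.21 for the interaction. With a pseudocount of 5 TPM it was -1.36 in GYY_PD1 against Veh_IgG, -1.14 against Veh_PD1 and -1.08 against GYY_IgG, and with 1 TPM it was -0.87 against Veh_IgG. The median changed sign with 5 TPM in Veh_PD1 against Veh_IgG (-0.22) and with array weights in GYY_PD1 against GYY_IgG (0.05). With each library left out in turn it ranged from -0.58 to -0.16 in GYY_PD1 against Veh_IgG, from -0.77 to -0.30 against Veh_PD1, from -0.49 to -0.03 against GYY_IgG, from -0.17 to -0.06 in GYY_IgG against Veh_IgG, from 0.07 to 0.24 in Veh_PD1 against Veh_IgG and from -0.69 to -0.21 for the interaction. In the first 3 and the interaction, the value nearest to 0 was that without GYY_PD1 replicate 1.

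Single genes in GYY_PD1 against Veh_IgG changed sign as follows, none of them past the threshold relative to the library median, and the cause was not tested. With array weights the values were 0.025 for Rps27, 0.035 for Rps15, -0.36 for Rps28, 0.059 for Rpl3, 0.032 for Rps2, 0.091 for Rpl5, 0.082 for Rpl11, 0.16 for Rpl23, 0.13 for Rpl30, 0.13 for Rpl28 and 0.097 for Rps4x. With GYY_PD1 replicates 1 and 4 left out they were 0.044 for Rps27, 0.049 for Rps15, -0.37 for Rps28, -0.0075 for Rpl3l, 0.053 for Rpl3, 0.037 for Rps2, 0.095 for Rpl5, 0.079 for Rpl11, 0.17 for Rpl23, 0.11 for Rpl30, 0.16 for Rpl28 and 0.12 for Rps4x. Without the 2 mice whose label numbers lie apart from the others (GYY_PD1 replicate 1 and GYY_IgG replicate 5) they were 0.037 for Rps15, -0.39 for Rps28, 0.12 for Rpl3, 0.059 for Rps2, 0.019 for Rpl5, 0.054 for Rpl11, 0.14 for Rpl23, 0.12 for Rpl30, 0.13 for Rpl28 and 0.062 for Rps4x. On the deposited scale they were -1.88 for Rpl27a, -1.85 for Rps28 and -0.37 for Rpl3l, with 1 TPM added -0.39 for Rpl27a and -0.45 for Rps28, with 5 TPM added -0.77 for Rpl27a and -1.06 for Rps28, and on coding TPM -0.16 for Rpl27a and -0.14 for Rps28. With a filter of 5 TPM they were 0.078 for Rpl5, 0.069 for Rpl30, 0.0040 for Rpl28 and 0.038 for Rps25, and relative to mid-expressed genes 0.15 for Rpl5, 0.033 for Rpl23, 0.15 for Rpl30, 0.081 for Rpl28, 0.027 for Rps4x and 0.11 for Rps25. With each library left out in turn the value ranged from -0.43 to 0.054 for Rpl11, from -0.30 to 0.14 for Rpl23, from -0.17 to 0.34 for Rpl27a, from -0.25 to 0.13 for Rpl28, from -0.44 to 0.12 for Rpl3, from -0.15 to 0.12 for Rpl30, from -0.17 to 0.019 for Rpl5, from -0.46 to 0.037 for Rps15, from -0.37 to 0.059 for Rps2, from -0.39 to 0.20 for Rps28 and from -0.30 to 0.062 for Rps4x. The depth of the libraries is unknown, so low values such as those of Rpl3l carry no counting interval.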
